A study of Homo sapiens with 6 samples.

Results

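The 10 genes described here encode nuclear factors that transcribe the mitochondrial chromosome or mature, stabilise and degrade its RNA: TFAM, POLRMT, TFB2M, LRPPRC, SLIRP, TBRG4, FASTKD5, ELAC2, PNPT1 and SUPV3L1. They were taken by symbol from 58233 Ensembl gene rows, and all 10 were found and passed the filter on low values. The RNA came from T24, an established human cell line whose labels give urinary bladder as the tissue and transitional cell carcinoma as the disease. One group stably carried the lentiviral vector alone (VEC, n = 3 libraries) and the other a constitutively active mutant of the small GTPase RhoC (Q63E, n = 3 libraries). Cells of both groups had been transduced by lentivirus and selected with puromycin, and whether a line was 1 clone or a pool is not stated in the labels. Nor do they state that the libraries of a group came from separate cultures, so the spread behind each p-value may be technical. The question posed here is how the nuclear factors stood in Q63E cells beside the lower mitochondrial transcripts of the same libraries.

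Human mitochondrial DNA is copied into long transcripts that cover many genes. POLRMT is the RNA polymerase, TFAM bends the promoter and packages the DNA, and TFB2M opens the promoter. The long transcripts are cut mostly at tRNAs that lie between the mRNAs, after which the mRNAs are bound, given a short poly(A) tail or degraded. LRPPRC and SLIRP form the complex that protects mRNAs, the FASTK-family proteins TBRG4 and FASTKD5 act on particular transcripts and junctions, ELAC2 cuts at the tRNA ends, and PNPT1 with SUPV3L1 forms the degrading complex.

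RefSeq promoters were matched by symbol for 9 of the 10 genes. Those of the 3 core transcription genes are shown because these had the 3 largest differences among the 10, in both directions. Each is the 250 bases before the start annotated by RefSeq on GRCh38.p14, with motif matches in capitals. RefSeq starts differ from the gene coordinates given further below, which are from GENCODE. The TFAM window lies inside the GENCODE span of its gene, and those of POLRMT and TFB2M reach into theirs.
TFAM, chr10:58385160-58385409, plus strand: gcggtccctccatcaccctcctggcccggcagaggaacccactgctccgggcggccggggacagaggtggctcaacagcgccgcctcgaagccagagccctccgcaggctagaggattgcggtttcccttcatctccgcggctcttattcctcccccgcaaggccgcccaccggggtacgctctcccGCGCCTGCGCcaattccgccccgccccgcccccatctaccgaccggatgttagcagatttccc
POLRMT, chr19:633538-633787, minus strand: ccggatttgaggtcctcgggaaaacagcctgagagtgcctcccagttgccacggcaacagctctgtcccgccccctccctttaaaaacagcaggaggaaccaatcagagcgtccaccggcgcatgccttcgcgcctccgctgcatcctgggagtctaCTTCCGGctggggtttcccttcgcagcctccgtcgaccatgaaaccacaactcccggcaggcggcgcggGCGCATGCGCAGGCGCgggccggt
TFB2M, chr1:246566262-246566511, minus strand: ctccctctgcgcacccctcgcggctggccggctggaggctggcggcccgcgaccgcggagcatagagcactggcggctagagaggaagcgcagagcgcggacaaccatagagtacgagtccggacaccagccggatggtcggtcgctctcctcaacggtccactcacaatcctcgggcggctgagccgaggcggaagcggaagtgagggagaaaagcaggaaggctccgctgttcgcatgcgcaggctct
Both strands were searched for the exact NRF1 palindrome, for a looser form of it with any base at the fifth position, and for the ETS core CCGGAAG to which GABP proteins bind. The exact palindrome also counts as a match to the looser form. The exact palindrome was present in 1.03% of 35097 RefSeq promoter windows of this length, the looser form in 5.08% and the ETS core in 8.52%. In the POLRMT window the exact palindrome lay 24 to 15 bases before the start and overlapped a second match to the looser form, and an ETS core lay at 93 to 87. The TFAM window held 1 match to the looser form, at 63 to 54 bases before the start. No match to these letters was found in the TFB2M window. Among the other 6 genes with a window, SLIRP, TBRG4 and ELAC2 held the ETS core and LRPPRC, PNPT1 and SUPV3L1 none of the 3. A match is a description of the letters and not of a bound site. Near matches were not searched for, so a window without a match may still hold such sites.

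The deposited values, taken as FPKM (fragments per kilobase of transcript, scaled to sequencing depth), summed to between 726929 and 769026 per library. RHOC went from 227 ± 8.27 (SD, n = 3) to 1746 ± 22.3 (SD, n = 3), in the direction the labels give. Of 13346 genes tested, 3383 (25.3%) passed an adjusted p of 0.05 in limma, 11.3% higher and 14.0% lower in Q63E. The keratins KRT7, KRT8 and KRT18 were abundant (summed epithelial markers 2116 to 2154 in VEC and 3350 to 3454 in Q63E). KRT19 was low in VEC and went from 5.67 ± 0.393 to 161 ± 1.85 (SD, n = 3). EPCAM, at a mean of 0.313 in VEC and 1.52 in Q63E, was not tested. Of the 6 epithelial markers 4 were tested, all keratins, and all 4 passed as higher in limma. Of 6 urothelial markers, UPK1A, UPK1B, UPK2 and UPK3A were at or near 0, GATA3 was at 1.79 ± 1.40 in VEC and 0.363 ± 0.352 in Q63E without passing, and PPARG rose from 13.2 ± 0.619 to 21.3 ± 0.250 (SD, n = 3, adjusted p = 0.000586 in limma). The part of these markers in the differences between groups was not tested. Among epithelial markers, CDH1 was listed at 0 in all libraries. Summed leukocyte markers were at most 0.49, endothelial ones at most 0.24 and fibroblast ones at most 3.27, with PTPRC and CD3E listed at 0.

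Of the 10 factors, 1 fell in Q63E and 0 rose, against 14.0% of all tested genes lower and 11.3% higher. At an unadjusted p of 0.05 in limma, 1 was higher and 1 lower, against 18.1% of tested genes higher and 20.1% lower. Their median log2 fold change was −0.03, beside −0.002 over all tested genes, and 4 lay above 0 and 6 below. The median size of the change, sign aside, was 0.06 for the 10 and 0.19 for all tested genes. Groups did not overlap for 2 of the 10, against 43.9% of tested genes, with Q63E above for 1 (21.1% of tested genes) and below for 1 (22.8%). The 10 values summed to 468 to 480 FPKM in VEC and to 458 to 476 in Q63E. In the same libraries the 13 mitochondrially encoded mRNAs made up 8.56%, 8.98% and 7.97% of all FPKM in VEC and 5.86%, 5.16% and 5.27% in Q63E. The groups did not overlap, and an exact two-sided permutation test gave p = 0.1, which is as low as 3 libraries against 3 can reach. In bulk RNA, fewer cells with such transcripts and fewer transcripts per cell cannot be told apart.

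**Figure D1:**
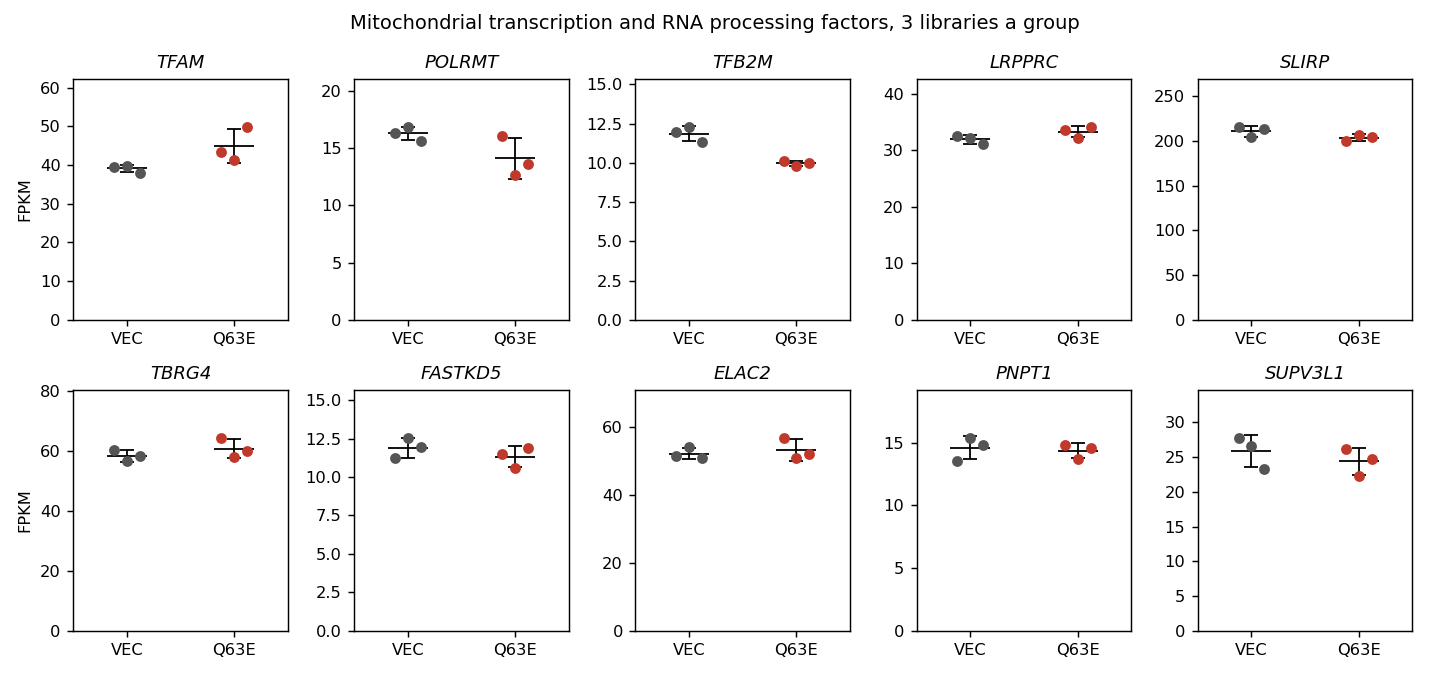
FPKM of each of the 10 factors in the 3 VEC (grey) and 3 Q63E (red) libraries; each axis starts at 0, and bars give the mean and SD. The Q63E points lie above all VEC points for TFAM and below them for TFB2M, and the other 8 genes overlap.

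Of the 3 core transcription genes TFB2M fell, and TFAM and POLRMT did not pass the test. TFB2M (ENSG00000162851, chromosome 1 from 246540560 to 246566324, minus strand, GRCh38) had values of 11.9, 12.3 and 11.3 FPKM in VEC and 10.1, 9.78 and 10 in Q63E. Every Q63E library lay below every VEC library. The gene, which encodes the promoter-opening factor, fell from 11.8 ± 0.476 to 9.96 ± 0.164 (SD, n = 3), with a log2 fold change of −0.23 (SE 0.061, 95% interval −0.38 to −0.08, adjusted p = 0.0377 in limma). The call was lost when any 1 of the 6 libraries was left out (adjusted p = 0.0618 to 0.106). It was also lost with no filter on low values (0.0575) and with all libraries scaled to 1 total (0.0732). The 50 nearest tested genes on chromosome 1 had a median log2 fold change of 0.02, and with their deviations subtracted TFB2M was at −0.22 (adjusted p = 0.0482).

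TFAM (ENSG00000108064, chromosome 10 from 58385022 to 58399221, plus strand), which packages mitochondrial DNA, stood at 39.6, 39.8 and 38.1 FPKM in VEC. Its Q63E values were 43.5, 41.4 and 49.8, all above the VEC values, with replicate 3 farthest. The means were 39.1 ± 0.941 and 44.9 ± 4.38 (SD, n = 3). The log2 fold change of 0.19 (SE 0.072, 95% interval 0.02 to 0.36) did not pass after adjustment (adjusted p = 0.104), and the same held in each of 16 alternatives (0.0651 to 0.231). Without Q63E replicate 3 it was 0.11.

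POLRMT (ENSG00000099821, chromosome 19 from 617224 to 633604, minus strand), the polymerase itself, had 16.3, 16.8 and 15.7 FPKM in VEC and 16.1, 12.6 and 13.6 in Q63E. Q63E replicate 1 lay inside the VEC range and the other two below it. The log2 fold change was −0.20 (SE 0.093, 95% interval −0.42 to 0.02, adjusted p = 0.168). Without Q63E replicate 1 it was −0.29 and passed (adjusted p = 0.0476). Its 50 nearest tested genes had a median of −0.11, and with these subtracted POLRMT was at −0.09 (adjusted p = 0.511).

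Ratios of FPKM between TFAM and its partners are given per library. TFAM per POLRMT was 2.42, 2.36 and 2.43 in VEC and 2.70, 3.28 and 3.66 in Q63E, with no overlap. TFAM per TFB2M was 3.32, 3.24 and 3.36 in VEC and 4.31, 4.23 and 4.98 in Q63E. This ratio could not overlap, since TFAM was higher and TFB2M lower in every Q63E library than in every VEC library. Both ratios were chosen after the values were seen and carry no test.

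Neither gene of the RNA-stabilising pair passed the test. LRPPRC (ENSG00000138095, chromosome 2 from 43886508 to 43996005, minus strand) had 32.6, 32.2 and 31.1 FPKM in VEC and 33.6, 32.2 and 34.1 in Q63E. The ranges overlapped, and the log2 fold change was 0.06 (SE 0.045, 95% interval −0.05 to 0.17, adjusted p = 0.396). SLIRP (ENSG00000119705, chromosome 14 from 77708071 to 77761104, plus strand), its small RNA-binding partner, had 215, 204 and 213 in VEC and 199, 207 and 205 in Q63E. Its ranges overlapped too, with a log2 fold change of −0.05 (SE 0.035, 95% interval −0.13 to 0.04, adjusted p = 0.358). SLIRP overlaps SNW1 on the other strand (44.4 to 56.6 FPKM), and without a stated strand reads of the 2 genes cannot be told apart. SLIRP was the most abundant of the 10, and SLIRP per LRPPRC stood at 6.60 ± 0.262 for VEC and at 6.12 ± 0.264 for Q63E (SD, n = 3), with overlapping ranges.

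Neither of the FASTK-family factors passed the test. TBRG4 (ENSG00000136270, chromosome 7 from 45100100 to 45112047, minus strand), also known as FASTKD4 and required for the stability of several mitochondrial mRNAs, had 60.5, 56.6 and 58.3 FPKM in VEC and 64.4, 58.2 and 60.1 in Q63E. Its log2 fold change was 0.06 (SE 0.051, 95% interval −0.07 to 0.18, adjusted p = 0.457). FASTKD5 (ENSG00000215251, chromosome 20 from 3146519 to 3159897, minus strand) is known for cutting at mRNA junctions that no tRNA marks. It had 11.3, 12.5 and 11.9 in VEC and 11.5, 10.6 and 11.9 in Q63E, with a log2 fold change of −0.07 (SE 0.073, 95% interval −0.24 to 0.11, adjusted p = 0.544). It overlaps UBOX5 on the same strand (1.81 to 2.30 FPKM). In both genes 2 of the 3 Q63E values lay inside the VEC range.

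ELAC2 (ENSG00000006744, chromosome 17 from 12992391 to 13018187, minus strand), the endonuclease that cuts at the 3′ end of tRNAs, had 51.4, 54.0 and 51.0 FPKM in VEC and 56.8, 50.8 and 52.1 in Q63E. The groups overlapped (log2 fold change 0.03, 95% interval −0.10 to 0.16, adjusted p = 0.738). Most of its tRNA products could not be followed, since 21 of the 22 mitochondrial tRNA rows were listed at 0 in all libraries. The row not at 0, MT-TN, is given further below. A single value per gene also does not separate cut from uncut RNA.

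Values of both subunits of the degrading complex overlapped between groups, and neither passed. PNPT1 (ENSG00000138035, chromosome 2 from 55634265 to 55693910, minus strand), the exonuclease polynucleotide phosphorylase, had 13.6, 15.4 and 14.8 FPKM in VEC and 14.8, 13.7 and 14.6 in Q63E. Its log2 fold change was −0.02 (95% interval −0.18 to 0.14, adjusted p = 0.849). SUPV3L1 (ENSG00000156502, chromosome 10 from 69180232 to 69209099, plus strand), the RNA helicase of the complex, had 27.7, 26.6 and 23.3 in VEC and 26.1, 22.3 and 24.7 in Q63E. Its log2 fold change was −0.08 (95% interval −0.29 to 0.13, adjusted p = 0.528). SUPV3L1 per PNPT1 stood at 1.78 ± 0.240 for VEC and at 1.70 ± 0.0699 for Q63E (SD, n = 3), with overlapping ranges.

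In order of level in VEC, per transcript length, the genes ran SLIRP, TBRG4, ELAC2, TFAM, LRPPRC, SUPV3L1, POLRMT, PNPT1, FASTKD5 and TFB2M. Only FASTKD5 and TFB2M were neighbours whose VEC ranges overlapped. In Q63E PNPT1 and POLRMT overlapped instead, and TFB2M lay below FASTKD5 in every library. SLIRP stood at the 96.7th percentile of mean level among tested genes and TFB2M at the 45.6th. Annotated pseudogene copies of TFAM, POLRMT and PNPT1 were at 0.52 FPKM or less.

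The mitochondrial mRNAs whose fall these values stand beside had log2 fold changes from −0.07 to −1.29. MT-CO3, which encodes a core subunit of respiratory complex IV, had 7185, 7251 and 6625 FPKM in VEC and 2960, 2629 and 3002 in Q63E. Of the 13 mRNAs 10 passed as lower in limma and 0 as higher, against 14.0% and 11.3% of all tested genes. At an unadjusted p of 0.05 in limma, 11 were lower and 0 higher. The interval of LRPPRC lay wholly above the intervals of 11 of the 13 mRNAs, and that of TFAM above 11. For TBRG4 the number was 10, for SLIRP and ELAC2 9, for FASTKD5, PNPT1 and SUPV3L1 8, and for POLRMT and TFB2M 6. These are 95% intervals of single genes, not adjusted over the 13346. The 2 rRNAs, which come from the same strand, were at −0.09 (MT-RNR1, adjusted p = 0.472) and −0.23 (MT-RNR2, 1841 ± 89.1 to 1569 ± 108, adjusted p = 0.0359). The call of MT-RNR2 was lost in 8 alternatives, among them without VEC replicate 2 or 3 and without Q63E replicate 1 or 3.

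**Figure D2:**
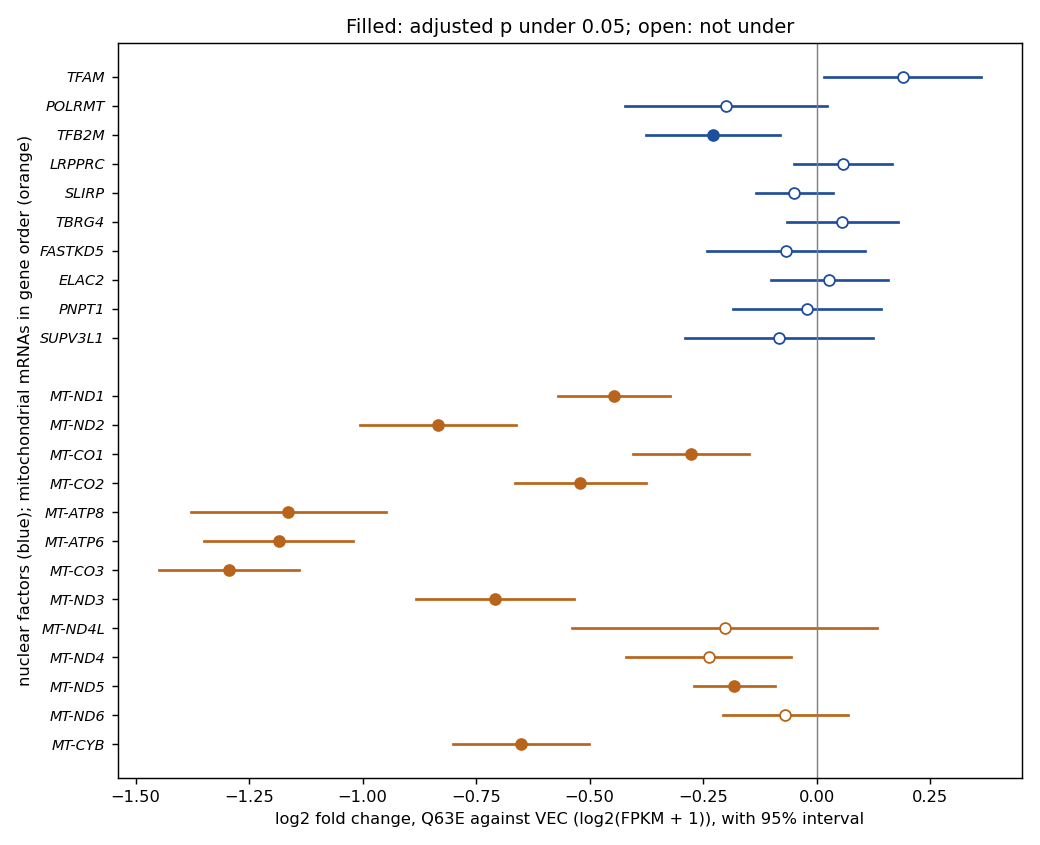
Log2 fold change with its 95% interval for the 10 nuclear factors (blue) and the 13 mitochondrial mRNAs in gene order (orange); filled points passed an adjusted p of 0.05. The blue points lie between −0.23 and 0.19, while the orange ones run from −0.07 for MT-ND6 to −1.29 for MT-CO3.

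Fold changes were unequal along the mitochondrial chromosome, where most neighbouring mRNAs are separated by tRNA genes and a few are not. MT-ATP8 and MT-ATP6 overlap and are known to stay on 1 mRNA. MT-ATP6 abuts MT-CO3 with 0 tRNA genes between. These 3 had log2 fold changes of −1.16, −1.19 and −1.29. MT-ND4L and MT-ND4, the other pair known to share an mRNA, were at −0.20 and −0.24, and neither passed. Between MT-ND5 and MT-CYB lie 598 bases with 0 tRNA genes on the strand that holds both, and they were at −0.18 and −0.65. FASTKD5, which is known to act at junctions without a tRNA such as that before MT-CO3, was at −0.07. Whether any factor's level bears on these falls was not tested.

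The 13 mitochondrial mRNAs summed to 59705 to 67028 FPKM in VEC and to 38275 to 42572 in Q63E. The factors changed less, so a ratio of this sum to a factor mostly restates the fall of the sum. Differences between the ratios restate the factors' own changes, and no ratio carries a test. Set against each factor, the summed mitochondrial mRNA was lower in every Q63E library than in every VEC library. Per FPKM of LRPPRC it was 2010 ± 82.0 in VEC and 1200 ± 63.3 in Q63E, so that it dropped by 40.3%, while the mean of LRPPRC itself was 31.9 and 33.3. Per TFB2M, the factor that fell, it was 5417 ± 130 and 4007 ± 181, the smallest difference of the 10, and it dropped by 26.0%. Per TFAM it was 1639 ± 61.9 and 895 ± 102, the largest, and it dropped by 45.4% (SD, n = 3 throughout). MT-ATP8 had the highest value in the sum, at 16100 ± 970 FPKM in VEC and 7209 ± 815 in Q63E. MT-ATP6, known to stay on the same mRNA, was at 4837 ± 269 and 2129 ± 162. MT-ND4L and MT-ND4, the other pair known to share an mRNA, had means of 6851 and 3016 in VEC and of 5919 and 2557 in Q63E. The sum and the share of all FPKM thus count each of these shared mRNAs more than once.

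**Figure D3:**
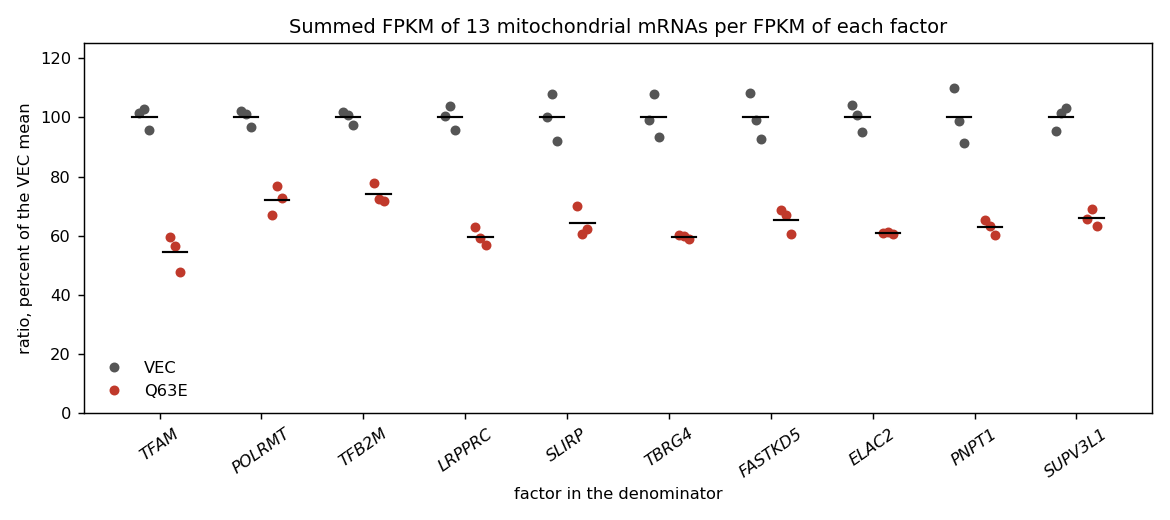
Summed FPKM of the 13 mitochondrial mRNAs divided by the FPKM of each factor, per library, as a percent of the VEC mean of that ratio; black lines are group means. In all 10 columns the Q63E points (red) lie below the VEC points (grey), least for TFB2M and most for TFAM. This order restates the factors' own changes.

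Of 14 other genes of mitochondrial transcription and DNA maintenance, 2 fell and 0 rose in limma, with a median log2 fold change of 0.02. At an unadjusted p of 0.05 in limma, 2 were higher and 2 lower. For this list and those that follow, the shares of all tested genes were 14.0% lower and 11.3% higher. At an unadjusted p of 0.05 in limma they were 20.1% lower and 18.1% higher. MTERF3, a factor of the mTERF family that binds mitochondrial DNA, fell from 24.7 ± 0.546 to 20.9 ± 0.390 FPKM (log2 fold change −0.23, adjusted p = 0.0134). MGME1, an exonuclease of mitochondrial DNA, fell from 29.9 ± 1.82 to 24.5 ± 2.00 (−0.28, adjusted p = 0.0402). With the median of their 50 neighbouring genes subtracted neither passed (MTERF3 −0.09, adjusted p = 0.254, and MGME1 −0.14, 0.222). MGME1 was also lost without VEC replicate 1 or 3 or Q63E replicate 1 or 2. With replicate number added to the limma model as a block, both were lost (MTERF3 adjusted p = 0.0517, MGME1 0.0734).

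Partners in RNA cleavage, polyadenylation, decay and stability had 2 fallen and 0 risen of 18 and a median of −0.08. At an unadjusted p of 0.05 in limma, 3 were lower and 0 higher. FASTKD2, a further FASTK-family protein that acts on the large rRNA, fell from 16.8 ± 0.271 to 13.8 ± 0.1 (−0.26, adjusted p = 0.0117). GRSF1, which binds RNA in mitochondrial granules, fell from 70.6 ± 2.02 to 57.5 ± 1.84 (−0.29, adjusted p = 0.00412). The neighbours of GRSF1 on chromosome 4 had a median of −0.41, and with them subtracted it was at 0.14 (adjusted p = 0.0613), while FASTKD2 was at −0.32. With replicate number added to the limma model as a block, FASTKD2 did not pass (adjusted p = 0.0530) and GRSF1 did (0.0311).

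RNA modification genes had 2 risen and 1 fallen of 21, with a median of −0.06. RPUSD3, a pseudouridine synthase family member, rose from 20.0 ± 1.29 to 34.6 ± 2.94 (0.76, adjusted p = 0.00119), and TRNT1, which adds the CCA end to tRNAs, from 9.16 ± 0.500 to 11.9 ± 1.14 (0.35, adjusted p = 0.0292). TRMU, which thiolates mitochondrial tRNAs, fell from 81.2 ± 2.37 to 52.1 ± 1.94 (−0.63, adjusted p = 0.000319). Their 50 nearest tested genes had medians of the same sign: 0.35, 0.35 and −0.41. With these subtracted RPUSD3 was at 0.40 (adjusted p = 0.0293), TRMU at −0.24 (0.0130) and TRNT1 at 0.01 (0.933). TRNT1 was also lost without VEC replicate 1 or 3 or Q63E replicate 1 or 3. It was lost too with replicate number as a block (adjusted p = 0.0809 in limma).

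Nuclear regulators of mitochondrial genes had 2 risen and 2 fallen of the 9 tested, with PPARGC1A and PPARGC1B below the minimum. Before adjustment, 2 were higher and 3 lower at a p of 0.05 in limma. GABPA, the DNA-binding part of the GABP factor whose ETS core was searched for above, fell from 9.59 ± 0.355 to 6.62 ± 0.204 (−0.48, adjusted p = 0.00412). Its neighbours on chromosome 21 had a median of −0.37, and with these subtracted it was at −0.12 (adjusted p = 0.319). NRF1 went from 10.3 to 8.75 FPKM without passing (−0.21, adjusted p = 0.0661). ESRRA, a nuclear receptor for mitochondrial genes, fell from 22.4 ± 1.94 to 17.2 ± 0.482 (−0.36, adjusted p = 0.0140). MYC rose from 43.8 ± 3.88 to 61.9 ± 1.89 (0.49, adjusted p = 0.00358) and SP1 from 21.0 ± 1.04 to 25.7 ± 0.881 (0.28, adjusted p = 0.0142). SP1 was lost without Q63E replicate 1 (adjusted p = 0.0523).

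Genes of general mitochondrial proteins (import, chaperones, channels and others) had 1 risen and 3 fallen of 11 and a median of −0.06. PHB1 (prohibitin) rose from 187 ± 19.4 to 242 ± 10.9 (0.37, adjusted p = 0.0171). The import channel TIMM23 (77.5 ± 0.823 to 67.9 ± 2.88, adjusted p = 0.0202), the chaperone HSPA9 (159 ± 4.52 to 140 ± 5.03, adjusted p = 0.0208) and the outer membrane channel VDAC2 (192 ± 8.08 to 172 ± 0.269, adjusted p = 0.0284) fell. Each of these 4 calls was lost when some single libraries were left out: PHB1 without Q63E replicate 1 or 2, TIMM23 without VEC replicate 2 or 3, HSPA9 without VEC replicate 1 or 2 or Q63E replicate 2 or 3, and VDAC2 without VEC replicate 2 or any Q63E replicate.

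**Figure D4:**
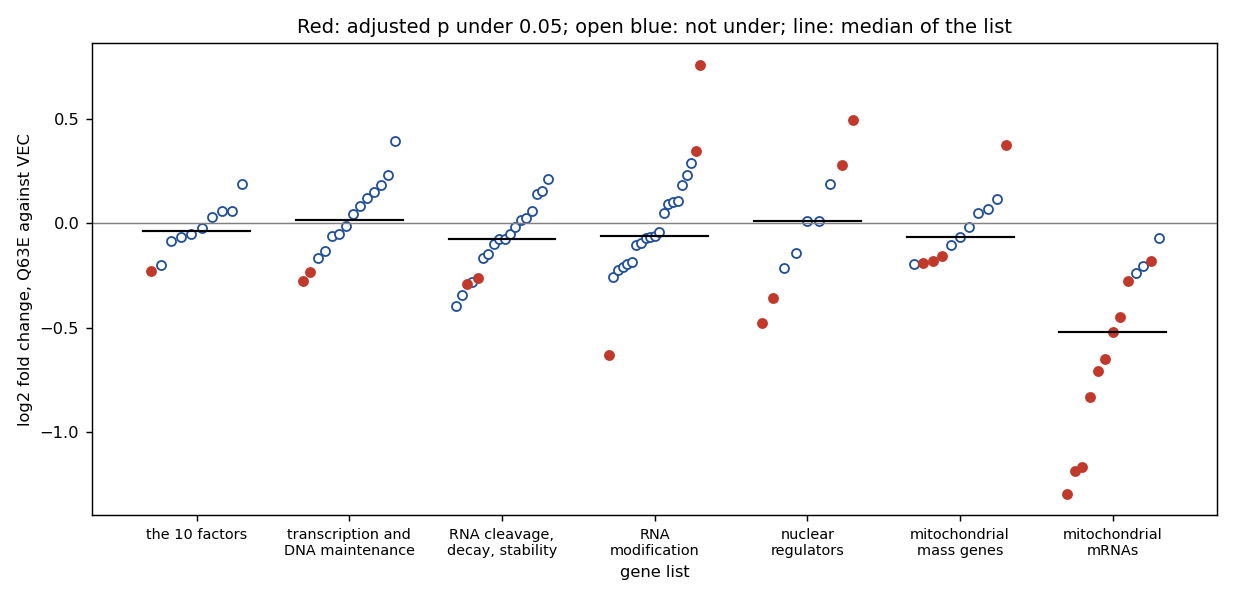
Log2 fold change of each tested gene in the 10 factors and in 6 other lists; red points passed an adjusted p of 0.05, open blue points did not, and the line is the median. The medians of the nuclear lists lie between −0.08 and 0.02, and that of the mitochondrial mRNAs at −0.52.

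TFB2M, the factor with the largest change, was closely tracked over the 6 libraries by SCAF1 and CUL1, which are among the 3 most correlated protein-coding genes (Pearson r = 0.995 each on log2(FPKM + 1), a description that the group difference they share with TFB2M helps to set). SCAF1 went from 26.8 to 20.8 FPKM and CUL1 from 38.3 to 32.9.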

How the data were processed

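RNA sequencing was done on 3 VEC and 3 Q63E libraries, grouped by their titles. Per the submitters' processing notes, HISAT2 2.1.0, Bowtie2 and GRCh38.p10 were used, with no role or order; the counter, annotation, strand setting and filters are not stated there or in the labels. What the authors deposited is 1 value per gene and library, taken here as FPKM from the values, since the file headers name no unit. Depth is therefore unknown, and no counting interval is given. The 649 assembled loci without a gene name were left out of the tests and held 0.274% to 0.511% of a library's summed value.

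Values were tested as log2(FPKM + 1) over the 13346 Ensembl genes with a mean of at least 1, with limma 3.58.1 (trend) in R 4.3.3, two-sided, group only, Benjamini-Hochberg adjusted at 0.05 over all tested genes. Design and alternatives assumed FPKM-like values. These fold changes understate the change of low genes. The steps were tested on simulated data. A gene table gave symbols for 57392 identifiers, and coordinates came from GENCODE release 29 (GRCh38) and promoters from RefSeq (GRCh38.p14).

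The 10 genes and all lists were chosen with earlier results of these data known. By rule, all 10 are named, as are the mitochondrially encoded genes, up to 4 passing genes per list with the largest change, RHOC, and the 3 genes most correlated with the most changed factor, of which 1 is not reported here; KRT7, KRT8, KRT18, CDH1, PTPRC and the other markers are from the marker lists. NRF1, PPARGC1A and PPARGC1B, outside the rule, were named after their values were seen, as were overlapping genes and MTO1.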

Additional observations from a re-analysis of the deposited data

How the results depend on the processing

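The 16 alternatives changed the scale, filter, scaling, trend, block, libraries or regional baseline. For the 10 factors, 144 of 160 recomputed log2 fold changes kept direction and side of the threshold. Factors passing as lower numbered 1 in the main fit, TFB2M. The number was 0 with no filter on low values, with 1 total over all rows or under the replicate block. With 1 library left out it was between 0 and 1. The 1 was POLRMT, without Q63E replicate 1 (adjusted p = 0.0476 in limma), and TFB2M was lost whichever library was left out. The 0 passing as higher stayed 0 throughout. Of the factors, 4 changed sign in some alternative: LRPPRC was at −0.0893 with the neighbouring genes' median subtracted, SLIRP at 0.00319 with quantile normalization and PNPT1 at 0.0136 with 1 total. With 1 library left out ELAC2 ran from −0.0183 to 0.0601 and PNPT1 from −0.0689 to 0.0151. GRSF1, a partner gene that had passed as lower at −0.29, was at 0.142 with the neighbours subtracted and did not pass. The cause was not tested. Over all genes, 942 were higher with the replicate block and 992 to 1138 with 1 library left out, against 1510. With the neighbours subtracted 1197 were lower, against 1873, and 1314 to 1483 with 1 library left out. Mitochondrial mRNAs passing as lower numbered 8 to 10: MT-CO1 and MT-ND5 were lost in 3 and 4 alternatives, both without Q63E replicate 3, and MT-ATP8 with quantile normalization (−0.43). The numbers were not taken as pairs, because the labels do not say that a number marks a shared culture or day. Same-numbered libraries did not deviate together (r = −0.04, −0.009 and −0.02). TFB2M under the block had an adjusted p of 0.103 in limma. Depth is unknown, which limits what can be said of low genes.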

Other observations

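MTO1, a mitochondrial tRNA modification gene singled out after its values were seen, stood apart in 1 library of each group. It had 6.35, 9.16 and 39.9 FPKM in VEC and 30.2, 6.75 and 6.42 in Q63E, with VEC replicate 3 and Q63E replicate 1 high. Its log2 fold change was −0.26 (SE 0.80, adjusted p = 0.844 in limma), far less precise than that of any of the 10 factors, whose SE was at most 0.093.

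MT-TN was the 1 mitochondrial tRNA row not listed at 0, with 248, 278 and 270 FPKM in VEC and 166, 169 and 186 in Q63E, the groups not overlapping (log2 fold change −0.61, adjusted p = 0.00107 in limma). It lies on the other strand from most mitochondrial mRNAs, as does MT-ND6 (−0.07, adjusted p = 0.426). Without a stated strand, reads in these rows cannot be told apart from those of RNA of the opposite strand.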
